A study of Mus musculus with 2 samples.

Results

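Interleukin-6 (IL-6) family signalling was read in sorted mouse lung epithelial cells through 10 genes fixed by symbol: the cytokine genes Il6 and Lif, the receptor genes Il6ra, Il6st, Osmr and Lifr, the kinase gene Jak1, the transcription factor gene Stat3, and the STAT3-responsive genes Socs3 and Bcl3. All 10 were found by an exact symbol match among 15113 genes listed in at least 1 of the 2 deposited tables, and all 10 were listed in both. By its title, the study addressed lung epithelial cells changed by a distant tumour ahead of metastasis. One library came from tumour-bearing C57BL/6 mice aged 6 to 8 weeks. They had received 1000000 LLC cells carrying luciferase (Lewis lung carcinoma, a transplantable mouse lung cancer line) under the skin of the back, a model of spontaneous lung metastasis. The other came from normal wild-type C57BL/6 mice of the same age range without a tumour. Both libraries were made from digested lung after sorting CD45-negative, Sftpc-positive cells: CD45 (gene Ptprc) marks leukocytes, and Sftpc, a surfactant protein, marks alveolar type 2 (AT2) cells. The time between injection and harvest, and the number of animals behind each library, are not stated in the labels.

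Cytokines of the IL-6 family signal through receptor complexes that share the transducing subunit encoded by Il6st. A private subunit gives each complex its ligand: the IL-6 receptor alpha chain (Il6ra) for IL-6, the LIF receptor (Lifr) for leukaemia inhibitory factor, and the oncostatin M receptor (Osmr) for oncostatin M. Janus kinases bound to the shared subunit phosphorylate STAT3, which enters the nucleus and induces genes that include its own inhibitor Socs3, so that the response is self-limiting. In the lung epithelium this pathway is known for acute-phase protein synthesis and for protection during injury.

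In the tumour-bearing library the IL-6 receptor gene Il6ra was higher, and the cytokine gene Il6 and the feedback inhibitor Socs3 were lower, than in the normal library. These were the 3 members past 2-fold. Stat3 was 1.52-fold higher, the receptor subunits Il6st, Osmr and Lifr were between 1.17-fold and 1.28-fold higher, Jak1 was close to equal and Bcl3 was 1.31-fold lower. Levels are RPKM, reads per kilobase of gene and per 1000000 reads of the library. Each group has 1 library, so no difference can be set against replicate spread, no p-value is given, and a size rule of 2-fold on log2(RPKM + 1) stands in for a test. Intervals in parentheses are exact (Clopper-Pearson) 95% intervals from read numbers recovered from the RPKM values, and cover counting error only. In bulk RNA, fewer cells of a type and less RNA per cell cannot be told apart.

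All 10 members reached 1 RPKM in the higher library. Of these, 1 (10%) was at least 2-fold higher in the tumour-bearing library, a share close to the 9.38% of all 12288 genes at that level. Another 2 (20%) were at least 2-fold lower, against 6.53% of all genes. The median log2 ratio was 0.24 over the members and 0.06 over all genes, with 7 members above 0 and 3 below. The members were chosen with earlier results of these data known, so these shares only describe them.

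The estimated library totals were 5387114 reads (tumour-bearing) and 5335352 reads (normal). Sftpc was at 54968 RPKM in the tumour-bearing library and 94902 RPKM in the normal library, and Ptprc had 2 and 12 reads in that order. Markers of other cells also differed, and their part in the results below was not tested. Markers of AT2 cells, the sorted type, were all 10 listed in both tables, with 1 past 2-fold upward, 1 downward and 8 within 2-fold. They summed to 87015 RPKM in the tumour-bearing library and 123852 RPKM in the normal library. Without Sftpc, the other 9 summed to 32047 RPKM in the tumour-bearing library and 28949 RPKM in the normal library, the opposite order. That order rests on Sftpd, at 7410 RPKM and 3633 RPKM in that order of libraries. Of the 10 markers, 4 had a log2 ratio above 0 and 6 below. All 9 fibroblast markers that reached 1 RPKM were at least 2-fold higher, summing to 481 RPKM in the tumour-bearing library and 27.8 RPKM in the normal library, where Lum and Tcf21 were at 0. For endothelium, 8 of 10 markers were at least 2-fold higher, with sums of 114 RPKM and 32.2 RPKM. For AT1 cells, the thin gas-exchange cells, 5 of 8 were, with sums of 2508 RPKM and 1555 RPKM. Markers of club cells, secretory cells of the airway, summed to 36244 RPKM in the tumour-bearing library and 32005 RPKM in the normal library. Most of that was Scgb1a1, at 35116 and 30142 RPKM, and of the 4 markers 1 was past 2-fold upward and 1 downward. Ciliated cell markers summed to 208 RPKM and 268 RPKM in the same order. Pan-leukocyte markers summed to 52.0 RPKM in the tumour-bearing library and 85.5 RPKM in the normal library, nearly all of it Lcp1, and neutrophil markers to 1.09 RPKM and 3.79 RPKM. Of the macrophage, pan-leukocyte and neutrophil markers, Adgre1, Marco, Mrc1, Cd52, S100a8 and Ly6g were listed in neither table. Other markers of these lists were present. Of 11 macrophage and monocyte markers, 8 were listed in a table and reached 1 RPKM, with 4 past 2-fold upward and 1 downward.

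Promoter sequences are shown for the 3 members past 2-fold, because Il6 and Socs3 were lower together and Il6ra was higher. Each runs from 250 bases before to 50 bases after the RefSeq start site on GRCm38.p6, the assembly that mm10 denotes, 5′ to 3′ on the gene's strand. Capitals mark matches to 5 motifs searched on both strands: TTCNNNGAA for STAT factors, TGACTCA for AP-1, GGGANNTTC for NF-kB, TGACGTCA for the cAMP response element and TTGCNNAA for C/EBP factors. No motif matches overlapped.
Socs3, chr11:117969317-117969616, minus strand: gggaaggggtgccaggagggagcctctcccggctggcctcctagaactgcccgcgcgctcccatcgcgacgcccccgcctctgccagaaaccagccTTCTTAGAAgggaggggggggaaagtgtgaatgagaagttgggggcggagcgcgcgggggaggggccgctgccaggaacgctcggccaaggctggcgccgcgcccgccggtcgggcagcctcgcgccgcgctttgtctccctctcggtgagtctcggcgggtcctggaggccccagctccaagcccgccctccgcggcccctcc
Il6, chr5:30012864-30013163, plus strand: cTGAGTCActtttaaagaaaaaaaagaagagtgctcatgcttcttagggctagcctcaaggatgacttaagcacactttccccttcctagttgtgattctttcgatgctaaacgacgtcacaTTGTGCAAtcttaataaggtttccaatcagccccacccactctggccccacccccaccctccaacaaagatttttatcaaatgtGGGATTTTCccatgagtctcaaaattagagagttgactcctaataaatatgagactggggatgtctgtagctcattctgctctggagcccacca
Il6ra, chr3:89913147-89913446, minus strand: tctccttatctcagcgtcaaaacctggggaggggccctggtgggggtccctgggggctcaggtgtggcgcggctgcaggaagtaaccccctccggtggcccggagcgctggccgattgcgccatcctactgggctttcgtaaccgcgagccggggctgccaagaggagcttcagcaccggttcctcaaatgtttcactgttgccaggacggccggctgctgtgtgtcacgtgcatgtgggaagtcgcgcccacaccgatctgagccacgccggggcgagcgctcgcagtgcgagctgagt

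The Socs3 window held 1 STAT match, whose first base lay 154 bases before the start site used. That window lies wholly inside the RefSeq span of Socs3, 117966079 to 117970336, so the start site used is not the outer 5′ end of the gene. Socs3 was the only one of the 10 members with a STAT match. That share, 1 of 10, is close to the 8.3% of 32851 mouse promoter windows of the same length that hold the motif. The Il6 window held an AP-1 match 249 bases before the start site (a motif in 5.2% of windows), a C/EBP match 128 bases before it (10.8%) and an NF-kB match 44 bases before it (3.94%). The Il6ra window held none of the 5. Among the other members, Lif had an AP-1 match 228 bases before its start site, and Jak1 a cAMP response element match 101 bases before its own (1.79% of windows). These are matches of letters in short windows and say nothing of binding.

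Il6 (GeneID 16193, chromosome 5, 30013114 to 30019975; coordinates here and below are RefSeq's on GRCm38) encodes the founding cytokine of the family. It was at 9.22 RPKM in the tumour-bearing library and 27.2 RPKM in the normal library, from 54 and 158 reads. The counting intervals of the levels, 6.93 to 12.03 RPKM and 23.2 to 31.8 RPKM, did not overlap. The level in the tumour-bearing library was thus 2.95-fold lower (2.16 to 4.10). Il6 ranked 5892nd by RPKM in the tumour-bearing library and 2278th in the normal library, and had the 277th lowest log2 ratio of the 12288 genes. Fibroblasts are a known source of IL-6 in lung. The summed fibroblast markers given above were higher in the library where Il6 was lower, and which cells gave the Il6 reads was not tested.

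Lif (GeneID 16878, chromosome 11, 4257568 to 4272514) encodes leukaemia inhibitory factor. It was the member with the least RNA in both libraries, at 1.11 RPKM in the tumour-bearing library and 0.747 RPKM in the normal library, from 24 and 16 reads. The intervals of the 2 levels overlapped. The ratio of 1.49 had an interval of 0.757 to 2.99, which holds both no difference and a 2-fold difference, so none was detectable at this depth. Within each library Il6 exceeded Lif per kilobase, 8.31-fold (5.05 to 14.1) in the tumour-bearing library and 36.5-fold (21.8 to 65.4) in the normal library.

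**Figure D1:**
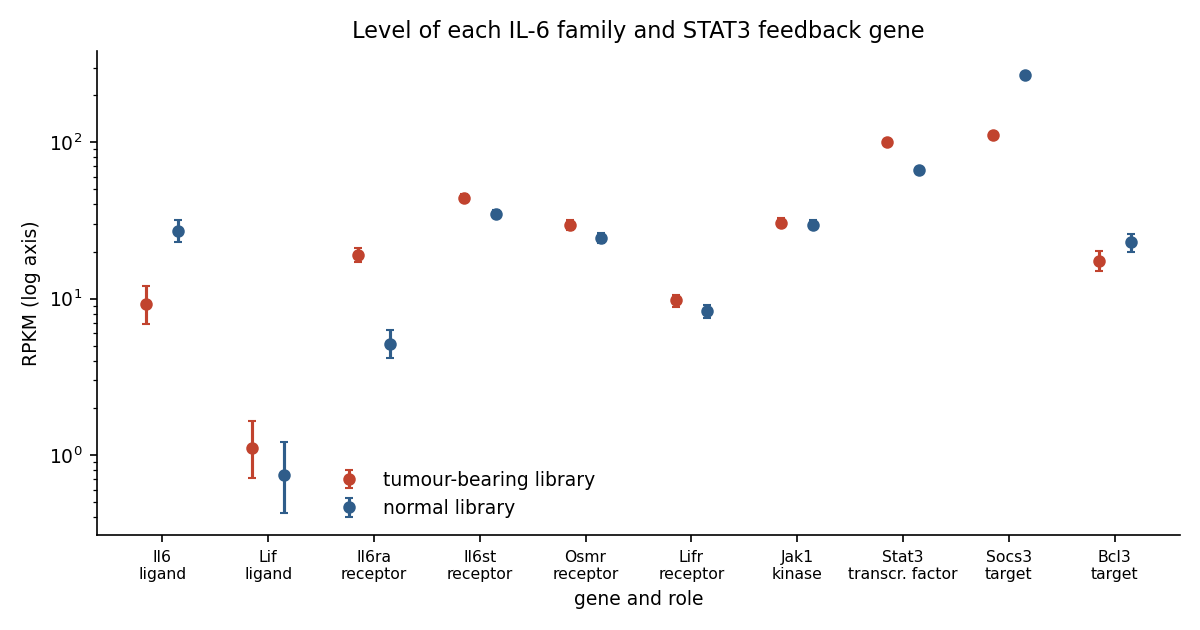
RPKM of the 10 genes (log axis) in the tumour-bearing library (red, left of each pair) and the normal library (blue, right), with 95% Poisson counting intervals as bars and 1 library per group. Il6 and Socs3 lie lower in the tumour-bearing library (9.22 and 111 RPKM, against 27.2 and 269.5 RPKM), and Il6ra lies higher (19.0 against 5.16 RPKM).

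Il6ra (GeneID 16194, chromosome 3, 89869324 to 89913196) encodes the chain that binds IL-6 and presents it to the shared subunit. It was at 19.0 RPKM in the tumour-bearing library and 5.16 RPKM in the normal library, from 342 and 92 reads. The intervals of the levels, 17.0 to 21.1 RPKM and 4.16 to 6.33 RPKM, lay far apart. Exons of Il6ra and of the unlisted gene Gm42809 overlap on opposite strands, which also holds for Bcl3 and the unlisted Gm16175. The level of Il6ra was 3.68-fold higher (2.92 to 4.69) in the tumour-bearing library, the 340th highest log2 ratio of the 12288 genes. Leukocytes also express Il6ra. The pan-leukocyte sum and the low neutrophil sum were lower in the library where Il6ra was higher. Nearly all of the pan-leukocyte sum was Lcp1, at 50.3 RPKM in the tumour-bearing library and 82.7 RPKM in the normal library, so its order is that of 1 gene. Ptprc, the gene of CD45, was at 0.067 and 0.404 RPKM in the same order. Macrophage and monocyte markers were mixed, with 4 of 8 past 2-fold upward and 1 downward. They summed to 11602 RPKM in the tumour-bearing library and 21633 RPKM in the normal library. Nearly all of that was Lyz2, at 11436 and 21565 RPKM in that order, so the order of the sums is that of 1 gene. Of the 8 markers, 6 had a log2 ratio above 0, and 2, Lyz2 and Chil3, below. Cd68, of the former, was at 31.5 RPKM in the tumour-bearing library and 7.81 RPKM in the normal library. Whether leukocytes of any kind contributed Il6ra reads was not tested.

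Il6st (GeneID 16195, chromosome 13, 112464070 to 112506860), the subunit that nearly every receptor of the family uses, was the most abundant of the 4 receptor genes. It was at 44.3 RPKM in the tumour-bearing library and 34.8 RPKM in the normal library, a ratio of 1.28 (1.17 to 1.39) from 1302 and 1011 reads. Osmr (GeneID 18414, chromosome 15, 6813568 to 6874968) was at 29.7 and 24.5 RPKM in the same order of libraries, a ratio of 1.21 (1.09 to 1.35) from 774 and 631 reads. Lifr (GeneID 16880, chromosome 15, 7090610 to 7197489) was at 9.74 RPKM in the tumour-bearing library and 8.34 RPKM in the normal library, a ratio of 1.17 (1.02 to 1.33) from 507 and 430 reads. The 3 ratios were all within 2-fold, and their intervals overlapped one another. Osmr and Lifr are close relatives that lie next to each other on chromosome 15, 216 kb apart with 0 protein-coding genes between them in the RefSeq annotation. Their relation to each other was nearly the same in both libraries, Osmr exceeding Lifr 3.05-fold (2.72 to 3.42) in the tumour-bearing library and 2.93-fold (2.59 to 3.32) in the normal library.

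With Il6ra past 2-fold and the other receptor genes within it, the make-up of the receptor transcripts differed between the libraries. Per Il6st transcript level there were 0.428 units of Il6ra (0.379 to 0.483) in the tumour-bearing library and 0.148 (0.119 to 0.184) in the normal library, intervals that did not overlap. For Osmr the figures were 0.670 (0.612 to 0.733) and 0.704 (0.636 to 0.778), and for Lifr 0.220 (0.198 to 0.244) and 0.240 (0.214 to 0.269), with overlapping intervals for both. Il6ra was the lowest of the 4 receptor genes in the normal library, below Lifr by 1.62-fold (1.29 to 2.05). In the tumour-bearing library Lifr was the lowest, and Il6ra stood above it. The 4 together summed to 103 RPKM in the tumour-bearing library and 72.7 RPKM in the normal library. These pairs of genes were chosen after the values were seen.

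**Figure D2:**
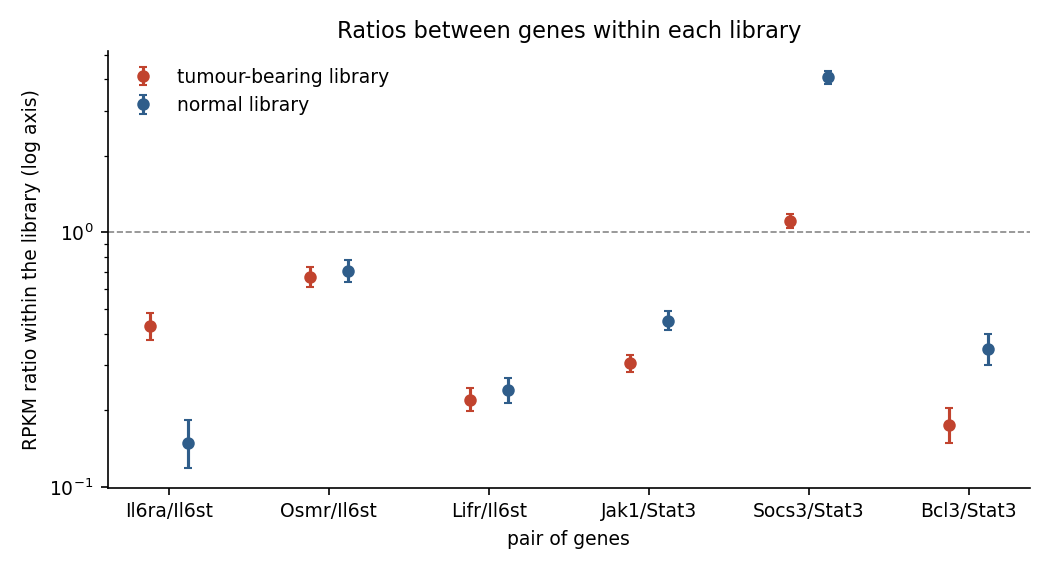
Ratio of RPKM between 2 genes of the same library (log axis), in the tumour-bearing library (red, left) and the normal library (blue, right), with exact 95% counting intervals as bars. The Il6ra to Il6st ratio is higher in the tumour-bearing library (0.428 against 0.148) and the Socs3 to Stat3 ratio lower (1.11 against 4.08), while the Osmr and Lifr ratios to Il6st overlap between the libraries.

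Jak1 (GeneID 16451, chromosome 4, 101151974 to 101265282), the main Janus kinase of the shared subunit, was at 30.6 RPKM in the tumour-bearing library and 29.7 RPKM in the normal library, from 874 and 840 reads. The ratio of 1.03 had an interval of 0.936 to 1.13. It is the member whose sign depended on scaling: its log2 ratio was below 0 under all 4 scalings tried, the lowest at -0.02. Exons of Jak1 overlap those of Raver2 on the opposite strand, and it is not known whether the counting used strand. Raver2 itself was at 1.53 RPKM at most.

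Stat3 (GeneID 20848, chromosome 11, 100886806 to 100939594) was the most abundant member after Socs3 in both libraries. It was at 100.2 RPKM in the tumour-bearing library and 66.0 RPKM in the normal library, from 2421 and 1580 reads, and the intervals of the levels did not overlap. The ratio was 1.52 (1.42 to 1.62), below the 2-fold rule. Stat3 overlaps exons of Stat5a on the opposite strand, a gene at 1.80 RPKM in the tumour-bearing library and 1.58 RPKM in the normal library. Jak1 per Stat3 was 0.306 (0.283 to 0.330) in the tumour-bearing library and 0.450 (0.414 to 0.490) in the normal library.

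Socs3 (GeneID 12702, chromosome 11, 117966079 to 117970336), which binds the shared subunit and its kinases and blocks further STAT3 phosphorylation, was the highest member in both libraries. It was at 111 RPKM in the tumour-bearing library and 269.5 RPKM in the normal library, from 1639 and 3943 reads. The level in the tumour-bearing library was 2.43-fold lower (2.29 to 2.57), the 420th lowest log2 ratio of the 12288 genes. By RPKM it ranked 514th in the tumour-bearing library and 188th in the normal library. Socs3 was lower and Stat3 higher in the tumour-bearing library, so that Socs3 per Stat3 was 1.11 (1.04 to 1.18) in the tumour-bearing library and 4.08 (3.85 to 4.33) in the normal library.

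Bcl3 (GeneID 12051, chromosome 7, 19808462 to 19822824) encodes an atypical I-kappa-B protein that binds NF-kB subunits and that STAT3 can induce. It was at 17.5 RPKM in the tumour-bearing library and 22.9 RPKM in the normal library, from 173 and 224 reads. Its level was 1.31-fold lower (1.07 to 1.60) and within 2-fold. Bcl3 per Stat3 was 0.175 (0.149 to 0.204) in the tumour-bearing library and 0.347 (0.300 to 0.399) in the normal library. Both STAT3-responsive members therefore had less RNA per unit of Stat3 RNA in the tumour-bearing library. Stat3 RNA is not a measure of STAT3 activity, which was not tested.

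**Figure D3:**
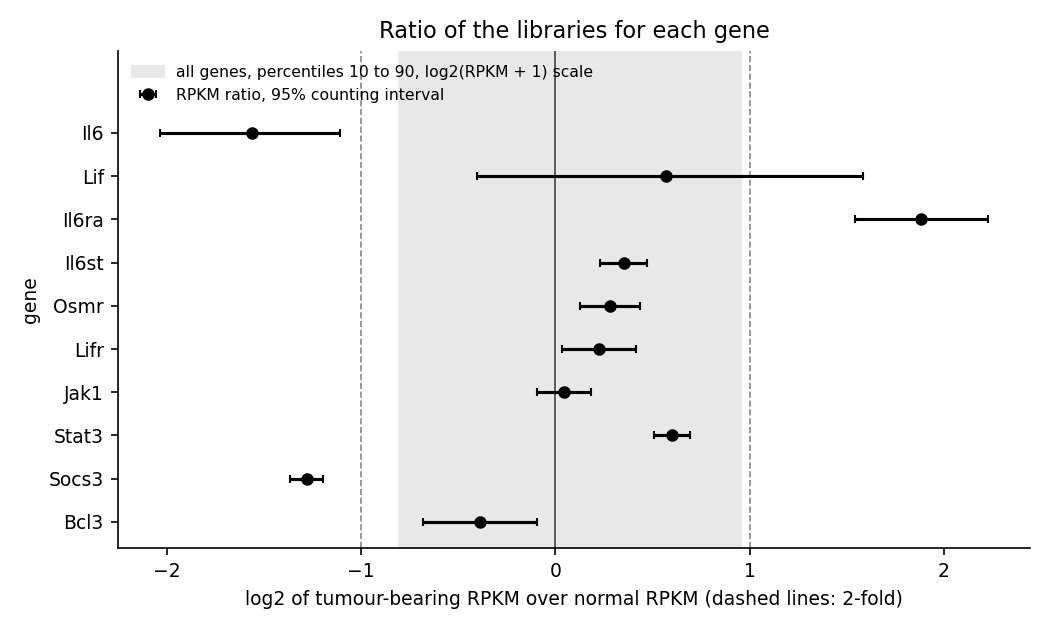
Log2 of the RPKM ratio of the tumour-bearing over the normal library for each gene, with exact 95% counting intervals as bars, dashed lines at 2-fold, and a grey band for percentiles 10 to 90 of all genes on the log2(RPKM + 1) scale (-0.80 to 0.96). Il6ra lies to the right of the 2-fold line, Il6 and Socs3 lie to the left of it, and the other 7 lie within 2-fold.

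The lower values of Il6 and Socs3 stood beside lower values of immediate early genes, a class induced rapidly by stimuli that include tissue digestion. All 15 of these genes were below 0, and 9 were at least 2-fold lower, with a median log2 ratio of -1.51. Their summed level was 3018 RPKM in the tumour-bearing library and 7066 RPKM in the normal library. Socs3 is itself rapidly inducible, and whether handling contributed to its value or that of Il6 was not tested. Egr2, a transcription factor gene, was 9.48-fold lower (6.31 to 14.8) and Egr1, its relative, 3.52-fold lower (3.38 to 3.66). Fosb, an AP-1 subunit gene, was 3.97-fold lower (3.82 to 4.13) and Nr4a1, an orphan nuclear receptor gene, 3.09-fold lower (2.87 to 3.33). This list was written after the values were seen.

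In both libraries the order of levels began with Socs3, Stat3 and Il6st and ended with Lif. Between these, the tumour-bearing library had Jak1, Osmr, Il6ra, Bcl3, Lifr and Il6. Of these neighbours Jak1 and Osmr, Il6ra and Bcl3, and Lifr and Il6 did not differ beyond counting error. The normal library had Jak1, Il6, Osmr, Bcl3, Lifr and Il6ra, and within the first 4 of these no neighbours differed beyond counting error. Il6 thus took place 9 in the tumour-bearing library and place 5 in the normal library.

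Other ligands of the family were scarce. Of 9, 5 were listed in a table and 2 reached 1 RPKM. Ctf1 (cardiotrophin 1) was at 2.76 RPKM in the tumour-bearing library and 3.34 RPKM in the normal library. Clcf1 (a cardiotrophin-like cytokine) was at 2.50 and 2.98 RPKM in the same order, and both ratios had intervals that held 1. Il11 had 9 reads in the tumour-bearing library and 6 in the normal library, Cntf 3 and 0, and Osm, a ligand of Osmr, 0 and 4. Ctf2, Il27, Ebi3 and Il31 were listed in neither table and so had 0 reads in each library, which allows an expected number of up to 3.

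Among the other receptor genes and the proteases that shed IL-6 receptor, 5 of 7 were listed and 1 was past 2-fold. Cntfr, the alpha chain for ciliary neurotrophic factor, was at 2.76 RPKM in the tumour-bearing library and 10.9 RPKM in the normal library, 3.94-fold lower (2.62 to 6.09). Il11ra1, the alpha chain for interleukin-11, was at 3.62 RPKM and 6.29 RPKM in that order, 1.74-fold lower (1.14 to 2.70). Alpha chains thus differed in direction, with Il6ra higher and Cntfr lower. The sheddase genes Adam10 and Adam17 had ratios of 1.58 (1.41 to 1.78) and 1.11 (0.962 to 1.28). Il27ra and Il31ra were listed in neither table.

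The other Janus kinases and STAT genes had 0 of 8 genes past 2-fold upward and 2 downward, with a median log2 ratio of -0.25. Tyk2, a Janus kinase, was at 2.21 RPKM in the tumour-bearing library and 5.46 RPKM in the normal library, 2.47-fold lower (1.81 to 3.42). Jak3 was at 10.2 RPKM in the tumour-bearing library and 5.74 RPKM in the normal library, a ratio of 1.77 (1.41 to 2.23). Stat5b was 1.40-fold lower (1.09 to 1.80).

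Of 15 other negative regulators at 1 RPKM or more, 2 were past 2-fold upward, 1 downward and 12 within 2-fold, with a median of 0.24. Ptpn2, a phosphatase of Janus kinases and STATs, was at 11.6 RPKM in the tumour-bearing library and 3.87 RPKM in the normal library, 2.99-fold higher (2.51 to 3.57). Socs4 was at 6.29 and 2.52 RPKM in the same order, 2.49-fold higher (1.60 to 3.98). Socs2, an inhibitor of growth hormone and STAT5 signalling, was the most abundant, at 238 RPKM in the tumour-bearing library and 130.3 RPKM in the normal library, 1.83-fold higher (1.72 to 1.95). Cish, a STAT5-induced inhibitor, was at 17.1 RPKM and 29.0 RPKM in that order, 1.69-fold lower (1.42 to 2.03). The close relatives of Socs3 therefore did not share one direction. Socs1, named after its values were seen, was at 1.52 RPKM in the tumour-bearing library and 4.62 RPKM in the normal library, 3.03-fold lower (1.49 to 6.64) from 11 and 33 reads.

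Genes that STAT3 can induce were divided. Of 14 regulators of transcription, survival and growth, 2 were past 2-fold upward and 3 downward, with a median of 0.11. Bcl2l1, which encodes the survival protein Bcl-xL, was at 114 RPKM in the tumour-bearing library and 36.0 RPKM in the normal library, 3.17-fold higher (2.85 to 3.53). Timp1, a metalloproteinase inhibitor that fibroblasts also make, had 60 reads in the tumour-bearing library and 0 in the normal library, or at least 19.8-fold higher if the 0 is set to 3 reads. Junb was at 244 RPKM in the tumour-bearing library and 718 RPKM in the normal library, 2.94-fold lower (2.81 to 3.08), and Fos at 459 and 1335 RPKM in the same order, 2.91-fold lower (2.82 to 3.01). Both belong to the immediate early list as well. Myc, named after its values were seen, was the remaining lower gene, 3.01-fold lower (2.37 to 3.85). Pim1, Pim3, Ccnd1, Hif1a, Vegfa, Cebpb, Cebpd, Mcl1 and Icam1 were within 2-fold.

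Acute-phase genes, whose transcription IL-6 and STAT3 are known to drive in liver, had the highest median of the pathway lists, 1.84 over 15 genes, or 1.75 with the 3 genes at 0 reads in the normal library (Orm1, Orm2 and Fga) set to 3 reads there. Of the 15, 11 were past 2-fold upward and 1 downward. Their summed level was 7651 RPKM in the tumour-bearing library and 2137 RPKM in the normal library, the opposite order to Il6 and Socs3. Serpina3n, a serine protease inhibitor, was at 134 RPKM in the tumour-bearing library and 1.17 RPKM in the normal library. Saa3 was at 51.4 and 1.76 RPKM, Cfb at 9.93 and 0.339 RPKM, and Orm1 had 258 and 0 reads, in that order. Lcn2, Lrg1 and Hp were chosen here for their abundance once the values were known. Lcn2 (lipocalin 2) was at 4899 RPKM in the tumour-bearing library and 901 RPKM in the normal library. Lrg1 was at 1117 RPKM in the tumour-bearing library and 353 RPKM in the normal library. Hp was at 809 RPKM and 593 RPKM in that order, a ratio of 1.36 (1.31 to 1.42), within 2-fold. The lower gene was Hpx, with 3 reads in the tumour-bearing library and 18 in the normal library. Saa and Orm genes have close copies that can share reads.

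Among 9 NF-kB subunit and inhibitor genes, the partners and relatives of Bcl3, 0 were past 2-fold upward and 2 downward, with a median of -0.35. Nfkbiz, like Bcl3 an atypical inhibitor gene, was at 18.8 RPKM in the tumour-bearing library and 67.2 RPKM in the normal library, 3.58-fold lower (3.20 to 4.02). Nfkbia was at 147 and 411 RPKM in the same order, 2.79-fold lower (2.62 to 2.98). Nfkb1 and Nfkb2, whose products Bcl3 binds, were 1.30-fold lower (1.13 to 1.49) and 1.497-fold lower (1.25 to 1.79).

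**Figure D4:**
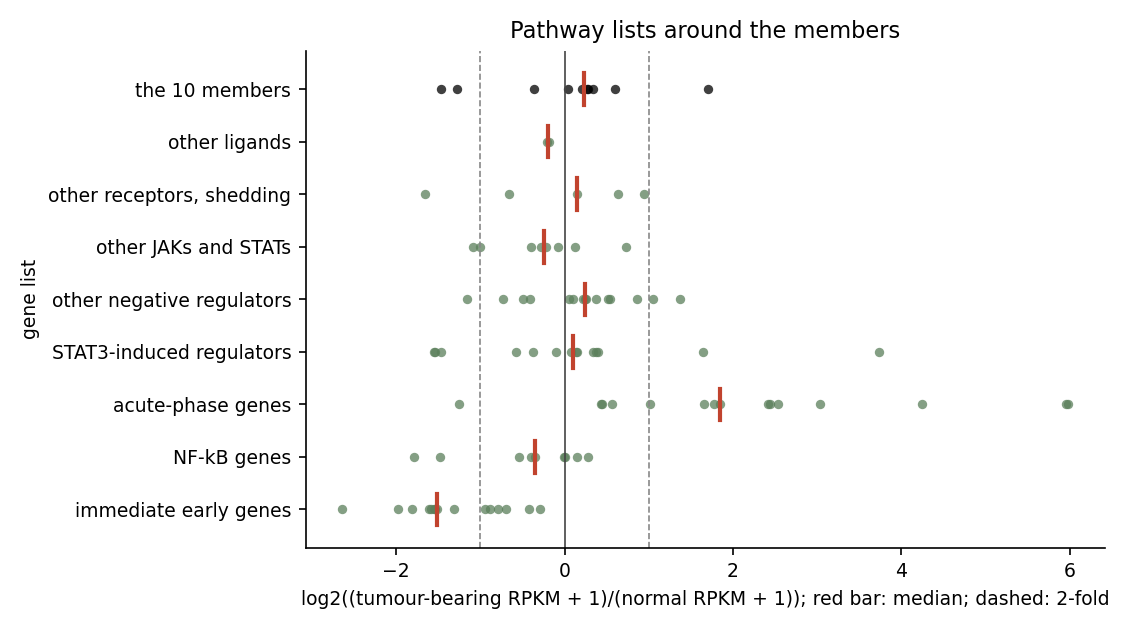
Log2((tumour-bearing RPKM + 1)/(normal RPKM + 1)) of every gene whose higher value reached 1 RPKM, 1 row per list, with the 10 members in black, red bars for medians and dashed lines at 2-fold. The acute-phase list lies mostly to the right (median 1.84), the immediate early list to the left (median -1.51), and the members around 0 (median 0.24) with 3 past 2-fold.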

How the data were processed

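RNA was sequenced in 2 libraries of sorted lung epithelial cells, 1 per group. The authors deposited 1 table per library with GeneID, symbol, description and RPKM, per the file headers. The submitters' processing notes name Trimmomatic and the genome build mm10. No source used here names the aligner, counter, annotation or strand setting. Per the labels' protocols libraries were oligo(dT)-selected and PCR-amplified, without molecular identifiers described. RPKM divides by the library's total reads. Of these Sftpc had 119040 of 5387114 in the tumour-bearing library and 203548 of 5335352 in the normal library. Of the sum of RPKM, which also divides by gene length and is not the divisor, Sftpc was 11.2% and 18.6% in that order.

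A row missing from a table was taken as 0. The measure was log2((tumour-bearing RPKM + 1)/(normal RPKM + 1)), which understates ratios of low genes, for genes whose higher value reached 1 RPKM. Folds in the text are direct RPKM ratios. The library totals start from the largest at which nearly all of the last 80 rows of a table, at 1 read each, gave whole gene lengths within 0.02 base. Among totals close to it, the one with the smallest median departure from whole lengths was taken. The totals are estimates of this work. Read numbers would scale with them if the least-read genes held more than 1 read. Reads were the multiples that row order allowed, for 15088 of 15113 genes, and a single multiple was possible for all 10 members.

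The members and lists were chosen with earlier results of these data known. Named genes were the members, in each list the up to 4 genes of largest absolute log2 ratio among those reaching 5 RPKM, and the ligand and receptor lists; some of these are not reported here. GeneIDs matched RefSeq for 15080 genes, and promoters were from RefSeq (GRCm38.p6) for all 10 members. Genes with a pattern like a member's were not sought, since 2 libraries give no measure of likeness. Python 3.11.15, pandas 2.3.3, scipy 1.17.1 and matplotlib 3.10.9 were used.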

Additional observations from a re-analysis of the deposited data

How the results depend on the processing

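Under 9 alternatives of scaling, pseudocount, low-value filter and recovered reads, and under a read interval wholly past 2-fold, Il6ra was the 1 member at least 2-fold higher and Il6 and Socs3 the 2 members lower. At a 1.5-fold rule Stat3 joined Il6ra, giving 2 higher and 2 lower. At a 4-fold rule the numbers were 0 and 0. Log2 ratios ranged from 1.24 to 1.87 for Il6ra, -1.55 to -1.18 for Il6 and -1.34 to -1.24 for Socs3, and Jak1 alone changed sign (-0.02 to 0.04). The log2 of the scaling factors was 0.05 to 0.07.

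Counts over all genes moved more. Genes at least 2-fold higher numbered 370 with a pseudocount of 5, 687 with a filter at 5 RPKM, 2383 at 1.5-fold and 204 at 4-fold, against 1153. They numbered 1539 with a pseudocount of 0.1, 1570 on recovered reads and 771 with the read interval past 2-fold. Genes at least 2-fold lower numbered 1247 with a pseudocount of 0.1, 190 with 5, 419 with the filter at 5 RPKM, 1282 on recovered reads, 1978 at 1.5-fold, 75 at 4-fold and 458 with the read interval past 2-fold, against 802. The cause was not tested. Lif did not pass the filter at 5 RPKM and has no value there.

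No paired analysis was possible because each group has 1 library, so that leaving one out gives no comparison. Depth limited Lif, with 24 reads in the tumour-bearing and 16 in the normal library.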

Other observations

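Receptors of other cytokines that signal through Janus kinases were read as a list of 27 genes written after the values were seen. Of these, 22 were listed in a table and 13 reached 1 RPKM, with 3 past 2-fold upward, 0 downward and a median log2 ratio of 0.33. Il4ra, the signalling chain for interleukin-4 and interleukin-13, was at 27.3 RPKM in the tumour-bearing library and 9.66 RPKM in the normal library, 2.82-fold higher (2.45 to 3.26). Ifngr1, the ligand-binding chain for interferon gamma, was at 49.7 and 21.3 RPKM in the same order, 2.33-fold higher (1.998 to 2.72). Ifngr2, the partner chain of Ifngr1, was at 27.9 RPKM and 18.6 RPKM in that order, a ratio of 1.5025 (1.26 to 1.80). Crlf2, the receptor chain for thymic stromal lymphopoietin, was at 5.15 RPKM in the tumour-bearing library and 3.01 RPKM in the normal library, a ratio of 1.71 (0.986 to 3.04). The remaining genes given here were picked after their values were seen. Il20rb had 29 reads in the tumour-bearing library and 1 in the normal library, a ratio of 28.7 (4.76 to 1173). Ifnar1, a type I interferon receptor chain, was at 8.72 RPKM in the tumour-bearing library and 13.1 RPKM in the normal library, 1.499-fold lower (1.30 to 1.73), and its partner Ifnar2 had a ratio of 1.01 (0.860 to 1.19).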
